A study of Mus musculus with 2 samples.

Results

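Naive pluripotency factor genes encode the regulators that hold mouse embryonic stem cells in the ground state of the early epiblast. CTCF peaks were described around 10 such genes, Esrrb, Klf2, Klf4, Klf5, Tfcp2l1, Prdm14, Tbx3, Zfp42, Tcl1 and Sall4, out of 21631 protein-coding genes of the RefSeq table on the autosomes and X (GRCm38.p6, the mm10 build). The genes were chosen by name, and a peak was counted for a gene when its summit lay within the gene span plus 100 kb on each side. In all, 82 of the 43344 peaks of the authors' conservative IDR set on these chromosomes fell in the 10 windows. IDR, the irreproducible discovery rate, keeps peaks that rank alike in both replicates.

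The cells were of the male line E14TG2a.4, mouse embryonic stem cells from strain 129/Ola that the labels give an embryonic age of 3.5 days, and chromatin was precipitated with an antibody against CTCF. The series held 2 libraries, biological replicates 1 and 2 of 1 group, with no treatment or second genotype. Both came from the same line and donor, so the spread between them may be partly technical, and no test between groups is possible. The lists gave no read counts, so depth was unknown, and as they hold no expression values the naive state of the cells could not be checked.

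CTCF is a DNA-binding protein with many zinc fingers that stops the cohesin complex as it extrudes chromatin loops. Its motif is asymmetric, and loops form mostly between motifs that point towards each other. In embryonic stem cells such loops bound the domains in which enhancers reach their genes. The naive factors are bound by one another and by Oct4, Sox2 and Nanog at distal enhancers, and several respond to LIF and Stat3 signalling.

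The sequences below are those of the pooled mm9 peak nearest to an annotated start for the 6 genes where it lay closest, and of the strongest peak of all 10 windows. Each is 59 bases of NCBIM37 (mm9), 5′ to 3′ on the strand given. Capitals mark the match to a CTCF matrix that was estimated from other peaks of the same list. A match passed at 12.8 bits, a score that 1% of flanking windows of 101 bp reach, and was sought within 50 bp of the peak midpoint and then in the whole peak. Where no match in the peak passed, the bases around the peak midpoint are shown without capitals.
Klf4, chr4:55543300-55543358, minus strand: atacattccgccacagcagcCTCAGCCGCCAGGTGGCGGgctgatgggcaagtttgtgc
Klf5, chr14:99700939-99700997, plus strand: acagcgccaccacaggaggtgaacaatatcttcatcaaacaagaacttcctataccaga
Esrrb, chr12:87849716-87849774, plus strand: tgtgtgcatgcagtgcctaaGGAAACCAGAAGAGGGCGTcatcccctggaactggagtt
Tfcp2l1, chr1:120519577-120519635, plus strand: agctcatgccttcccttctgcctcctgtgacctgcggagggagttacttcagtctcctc
Prdm14, chr1:13124532-13124590, minus strand: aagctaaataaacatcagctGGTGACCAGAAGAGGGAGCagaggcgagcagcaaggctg
Tbx3, chr5:120110793-120110851, plus strand: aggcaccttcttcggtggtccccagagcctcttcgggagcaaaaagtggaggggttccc
Tcl1, chr12:106497171-106497229, minus strand: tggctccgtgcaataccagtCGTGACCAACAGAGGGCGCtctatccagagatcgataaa
The Tcl1 site had the highest signal of the set and a match of 19.2 bits, and the Prdm14 site matched at 19.6 bits. The match at Esrrb scored 17.7 bits and that at Klf4 14.9 bits. Those at Esrrb and Prdm14 lay 317 and 113 bp from the midpoint, found only in the search of the whole peak. The peaks nearest to the starts of Klf5, Tfcp2l1 and Tbx3 reached at most 6.64, 11.2 and 10.55 bits.

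The number of peaks differed widely among the 10 genes, around the same middle as for other genes. Tbx3 had 18 peaks, Sall4 14, Esrrb 11, Prdm14 9, Klf2 and Tfcp2l1 7 each, Klf4 and Zfp42 5 each, Tcl1 4 and Klf5 2. Their median, 7, equalled that of all protein-coding genes (7, quartiles 3 and 11), with 4 genes above it, 4 below and 2 at it. At least 1 peak was present for 10 of 10 genes, beside 90.5% of all protein-coding genes. Per 100 kb of window the median was 2.89 peaks, beside 2.81 for all protein-coding genes, and the range was from 0.931 at Klf5 to 8.40 at Tbx3. Only 3.32% of protein-coding genes had more peaks than Tbx3, and 15.05% had fewer than Klf5.

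**Figure D1:**
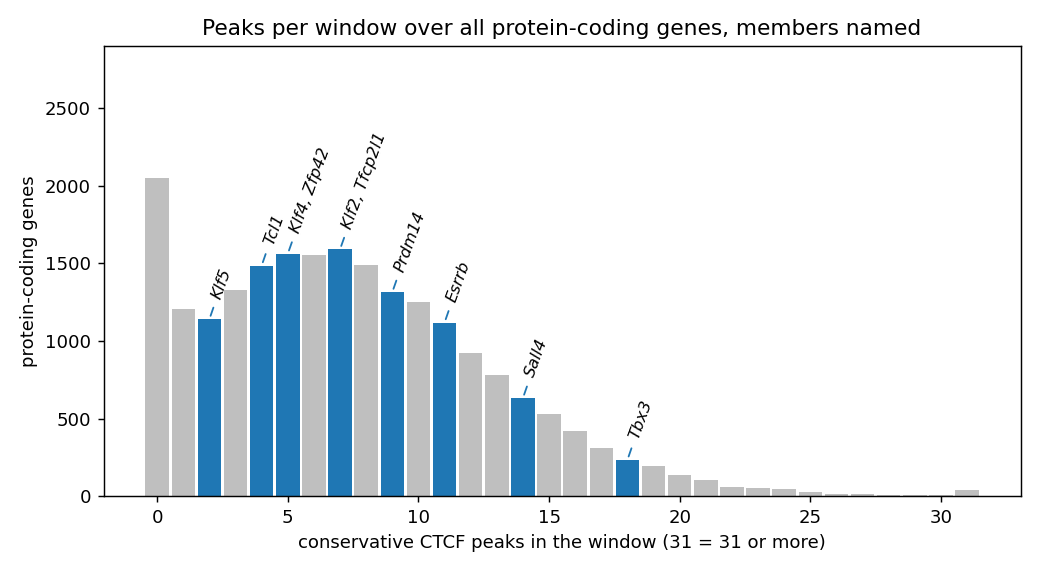
Number of protein-coding genes (y axis) by the number of conservative CTCF peaks in the gene span plus 100 kb each side (x axis), with the bars that hold the 10 genes in blue and their names above. The 10 genes spread from 2 peaks at Klf5 to 18 at Tbx3 around the shared median of 7.

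Of the 82 summits, 30 were upstream of the gene, 44 downstream and 8 inside. The downstream total was led by Tbx3 with 15 and Sall4 with 10. The split between upstream and downstream was not counted over all protein-coding genes, so it describes these windows only. A peak inside the span was present in 4 of the 10 genes (Esrrb, Klf4, Klf5 and Prdm14), beside 42.3% of all protein-coding genes. The distance from the span to the nearest peak on each side had a median of 30593 bp, beside 23850 bp for all protein-coding genes.

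The signal of the peaks, which the authors give for each peak on a scale they do not state, had a median of 85.7 in the windows and 77.2 in the whole conservative set. At or above the latter were 43 of the 82 peaks, and 8 (9.76%) were in the top decile of the set. The values ran from 8.87 beside Sall4 to 331 beside Tcl1. The highest peak of the window had a signal of 102 or more at 9 of the genes and of 21.7 at Klf5.

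**Figure D2:**
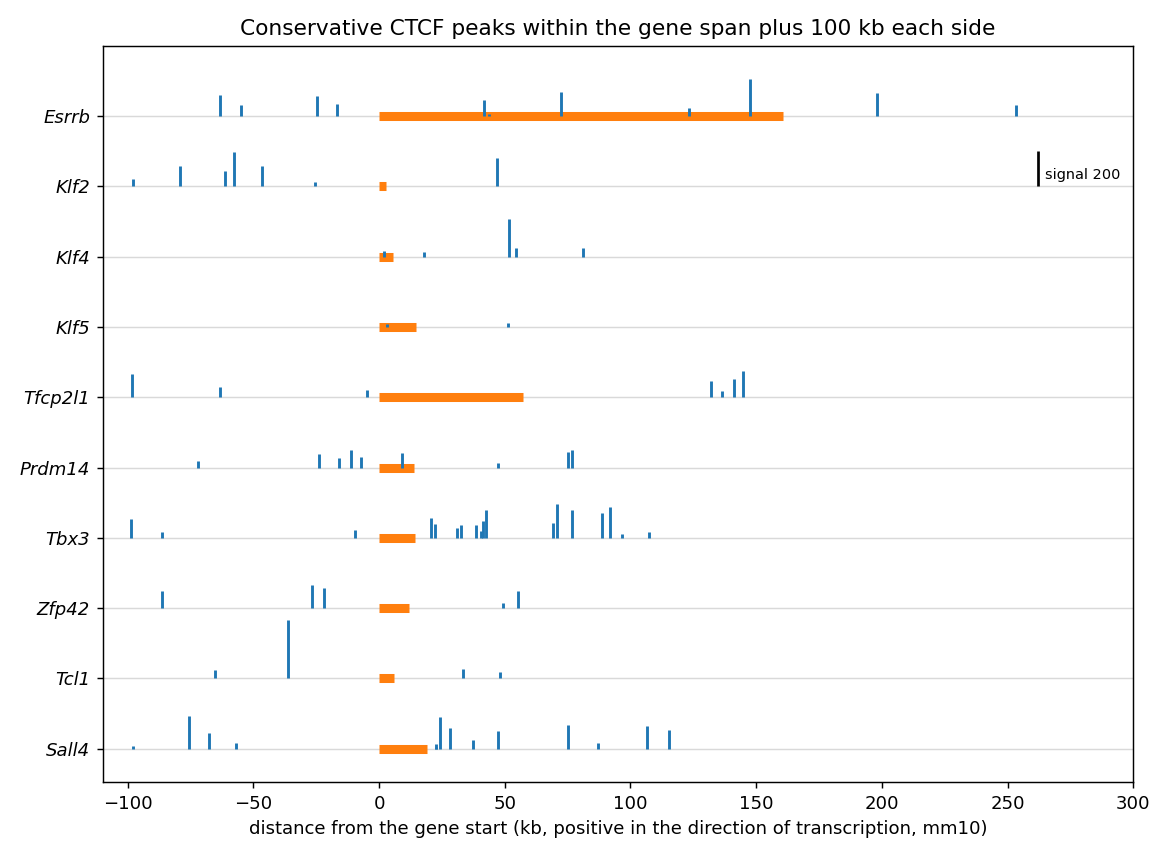
Positions of the 82 conservative peaks (blue lines, height proportional to the pooled signal, scale bar 200) around the 10 genes (orange bars), with the distance from the gene start in kb on the x axis. Tbx3 and Sall4 carry most of their peaks downstream, Klf4 has none upstream, and the tallest line stands 36.3 kb upstream of Tcl1.

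Esrrb, an orphan nuclear receptor that activates naive genes with Nanog and Oct4, had 11 peaks over chr12:86361117-86521628 (mm10, plus strand) and its flanks. Of these, 5 lay inside the gene, more than in any other of the 10, in the longest span of the set (160512 bp). The strongest was inside, 148 kb from the outermost start, with a pooled signal of 209 and rank 1498. Relative to each replicate's median over matched conservative peaks, its signal was 2.75 in replicate 1 and 2.49 in replicate 2, or 2.62 ± 0.186 (SD, n = 2). This peak lay 4069 bp from an internal start of Esrrb on mm9, and it is the Esrrb sequence shown above. The other inside peaks had pooled signals of 90.2, 12.6, 137 and 45.5, so that weak and strong sites mixed within the gene. The nearest peak upstream was 16744 bp away with relative signals of 0.615 and 1.02, and the nearest downstream was 37428 bp away with 2.07 and 1.19. Both pairs differed by more than 1.5-fold between the replicates, in opposite directions.

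The Krüppel-like factors Klf2, Klf4 and Klf5 bind GC-rich sites and can replace each other in part in self-renewal, and their windows differed in CTCF binding. Klf2, a compact gene (chr8:72319062-72321654, plus strand), had 6 peaks upstream, 1 downstream and none inside. Its strongest peak, 57.8 kb upstream, had a pooled signal of 193 and relative signals of 2.62 and 2.13 (2.38 ± 0.347, SD, n = 2). The nearest upstream peak, at 25520 bp, was weak in both libraries, with 0.249 and 0.305. The single downstream peak, 44351 bp away inside Eps15l1, was strong in both, with 1.95 and 2.00 (1.97 ± 0.0341).

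Klf4, a reprogramming factor whose known stem cell enhancers lie downstream of the gene, had CTCF peaks only in its span and downstream (chr4:55527137-55532475, minus strand). The strongest was 51.9 kb from the start, with a pooled signal of 216, rank 1238 and relative signals of 2.38 and 2.97 (2.68 ± 0.419, SD, n = 2). The other downstream peaks were weaker, at 47.8, 46.7 and 24.4, the last being the nearest one, 12339 bp from the gene. The peak inside the gene, 2021 bp from the start, gave 0.281 in replicate 1 and 0.562 in replicate 2, in relative signal. Of the 79 peaks matched in both replicates, it was 1 of 2 that differed by more than 2-fold, beside 3.20% of all matched conservative peaks.

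Upstream of Klf4 the nearest conservative peak lay 690192 bp away. No protein-coding gene and no peak of the authors' optimal IDR set, which is slightly larger, lay in that interval. The strongest entries there in the full lists, which also hold background, had relative signals of 0.294 in replicate 1 and 0.224 in replicate 2. Of all protein-coding genes, 1166 (5.39%) had a peak-free side at least as long.

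Klf5, which supports self-renewal and early trophectoderm, had the fewest peaks of the 10 (chr14:99298691-99313412, plus strand). The peak inside the gene, 3033 bp from the start, had a pooled signal of 19.3 and relative signals of 0.204 and 0.253. The downstream peak, 36361 bp away, had a pooled signal of 21.7, and replicate 2 gave a relative signal of 0.352. In replicate 1 the nearest entry was 136 bp away, beyond the 100 bp allowed, with a relative signal of 0.284. Both sites were thus weak in both libraries, and the nearest upstream peak was outside the window, at 153755 bp. With the strongest entries of either replicate alone the window held 1 peak.

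**Figure D3:**
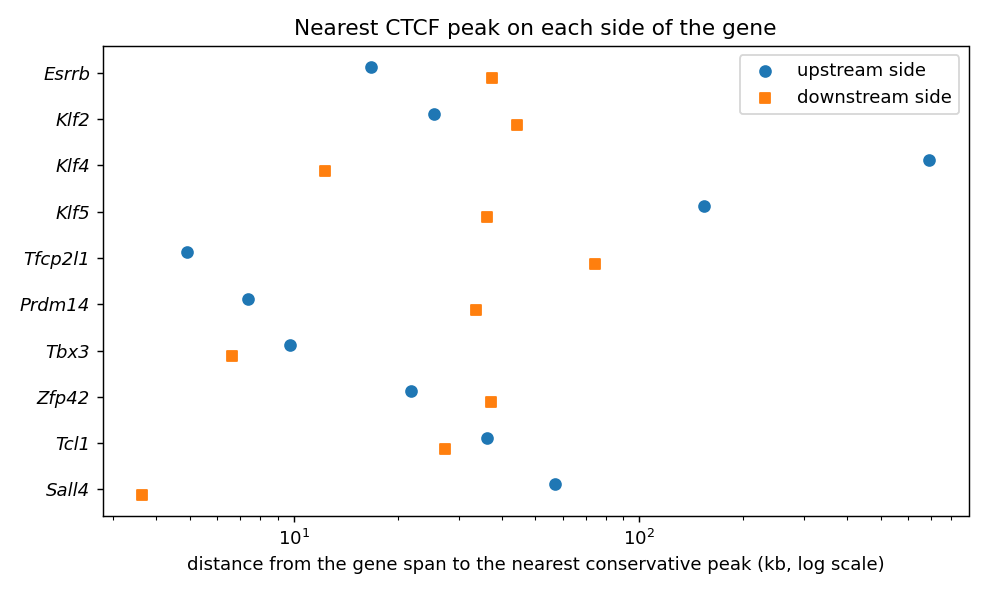
Distance from the gene span to the nearest conservative peak in kb (x axis, log scale) on the upstream side (blue circles) and the downstream side (orange squares) of each gene. The upstream side of Klf4, at 690 kb, is the longest interval, and the downstream side of Sall4, at 3639 bp, the shortest.

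Tfcp2l1, a grainyhead-family factor induced by LIF and Stat3, had 7 peaks and none inside its span (chr1:118627923-118685168, plus strand). The nearest, 4921 bp upstream of the start, had relative signals of 0.505 and 0.533 (0.519 ± 0.0193, SD, n = 2), below the median in both libraries. On the far side, 4 peaks lay between 74619 and 87353 bp beyond the gene. The outermost of these was the strongest of the window, with a pooled signal of 151 and relative signals of 1.65 and 2.04 (1.85 ± 0.272).

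Prdm14, which represses FGF signalling and DNA methylation genes, had 9 peaks (chr1:13113428-13127163, minus strand). Of these, 5 lay upstream, where they reached into Ncoa2, and the nearest was 7390 bp from the start with relative signals of 0.866 and 0.703. The strongest, 11277 bp upstream, had a pooled signal of 102 and relative signals of 1.39 and 1.24 (1.31 ± 0.106, SD, n = 2). The peak inside the gene stood close to the median of the set, with 1.10 and 0.972. The nearest downstream peak, 33740 bp away, was weak, with 0.223 and 0.375. None of the 9 peaks reached the signal of the strongest site at Esrrb, Klf4 or Tcl1.

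Tbx3, a T-box factor that sustains Nanog expression, had 18 peaks around its span (chr5:119670534-119684724, plus strand), which holds none. Upstream were 3 peaks, and the nearest, at 9780 bp, had relative signals of 0.402 and 0.663. Downstream were 15, from 6614 to 93342 bp beyond the gene. The nearest of them had a pooled signal of 116 and relative signals of 1.503 and 1.376 (1.44 ± 0.0898, SD, n = 2). The strongest, 56567 bp beyond the gene, had a pooled signal of 195 and relative signals of 2.47 and 2.36 (2.41 ± 0.0779). At 18496 bp beyond the gene lay the other peak of the 79 that differed by more than 2-fold, with 0.526 in replicate 1 and 1.17 in replicate 2. No other protein-coding gene touched the window, so every one of these peaks lay outside coding genes.

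Sall4, a zinc-finger repressor that works with Oct4 and the NuRD complex, had 14 peaks (chr2:168748332-168767201, minus strand). The 10 downstream peaks began 3639 bp beyond the gene and continued into Atp9a. The nearest was the weakest of all 82, with a pooled signal of 8.87, and it lay 204 bp from another conservative summit. The strongest downstream peak, at 5430 bp, had a pooled signal of 182 and relative signals of 2.65 and 1.87 (2.26 ± 0.557, SD, n = 2). On the upstream side the nearest peak was 57146 bp away with 0.320 and 0.527. The strongest peak of the window was also upstream, at 75489 bp, with 185 pooled and 2.58 and 2.04 in the replicates (2.31 ± 0.382).

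Zfp42, also called Rex1 and widely used as a marker of the naive state, had 5 peaks, all outside its span (chr8:43295067-43307009, minus strand). The nearest upstream peak, at 21863 bp, had relative signals of 1.52 and 1.32 (1.42 ± 0.141, SD, n = 2). The strongest, at 26724 bp upstream, had a pooled signal of 130.2 and relative signals of 1.63 and 1.59 (1.61 ± 0.0321). The nearest downstream peak, at 37201 bp, was weaker, with 0.369 and 0.333. All 5 peaks differed by less than 1.5-fold between the replicates.

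Tcl1, a coactivator of the kinase Akt and the only gene of the 10 that does not encode a DNA-binding regulator, had 4 peaks (chr12:105216753-105222737, minus strand). The strongest peak of all 10 windows lay 36266 bp upstream of it, with a pooled signal of 331 and rank 59 of 43344. Its relative signal was 3.77 in replicate 1 and 4.44 in replicate 2 (4.11 ± 0.476, SD, n = 2), the only peak of the 82 in the top 1% of the set. The nearest downstream peak, at 27446 bp, had 0.543 and 0.761. The next downstream peak, at 42252 bp, had 0.348 and 0.516.

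The downstream flank of Tcl1 holds the related genes Tcl1b1 to Tcl1b5, and there the builds differed in what the deposited lists held. The pooled mm9 list had 4 peaks at 33.6, 48.3, 77.6 and 93.0 kb from the Tcl1 start, with signals of 22.2, 20.8, 15.9 and 15.8. Their central 601 bases were 89.9% to 94.2% identical between pairs. The 59 bases around the motif are shown for all 4, since they are near-copies.
Tcl1 at 33.6 kb, chr12:106427334-106427392, minus strand: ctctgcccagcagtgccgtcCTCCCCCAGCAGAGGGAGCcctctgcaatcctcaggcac
Tcl1 at 48.3 kb, chr12:106412688-106412746, minus strand: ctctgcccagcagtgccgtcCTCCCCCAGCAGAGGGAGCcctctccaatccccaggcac
Tcl1 at 77.6 kb, chr12:106383326-106383384, minus strand: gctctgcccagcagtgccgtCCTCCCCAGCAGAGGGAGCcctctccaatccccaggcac
Tcl1 at 93.0 kb, chr12:106367891-106367949, minus strand: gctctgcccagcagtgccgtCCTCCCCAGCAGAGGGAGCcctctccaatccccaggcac
The last 2 sequences are the same letter for letter, and all 4 motifs point in the direction of Tcl1 transcription. In the conservative mm10 set only the sites at 33.4 and 48.2 kb were present, with signals of 53.1 and 37.1 and ranks of 28546 and 34163. The values of the single sites are uncertain where reads from near-identical copies cannot be told apart, and how the reads of these copies were placed was not tested.

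The IDR step kept peaks that rank alike in both replicates, so a similar ranking in the windows follows in part from that selection. Of the 82 peaks, 79 had an entry within 100 bp in both replicate lists. Of these 79, 62 (78.5%) differed by less than 1.5-fold in relative signal, beside 82.6% of all matched conservative peaks. Signal was higher in replicate 1 for 39 and in replicate 2 for 40. Over the 79 peaks Spearman's rho between the replicates was 0.893, beside 0.910 over 41382 matched peaks, as a description across peaks, which share libraries and depth. The 3 unmatched peaks were 1 each at Esrrb, Klf5 and Sall4, with pooled signals of 12.6, 21.7 and 8.87.

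**Figure D4:**
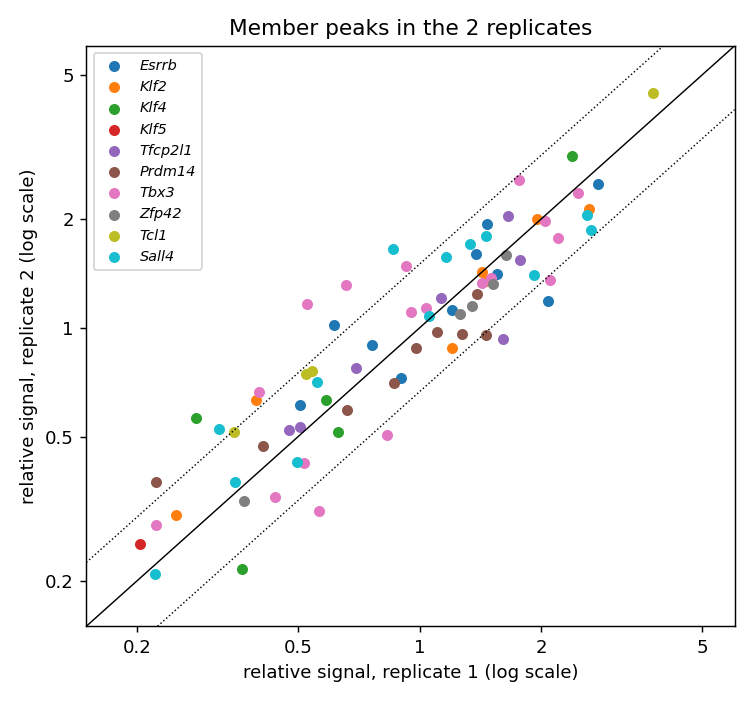
Relative signal of the 79 matched peaks in replicate 1 (x axis) and replicate 2 (y axis), both on log scales, with 1 point per peak coloured by gene, the solid line at equality and dotted lines at 1.5-fold. Of the points, 62 lie between the dotted lines, and the Tcl1 upstream peak is highest in both replicates.

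A pooled mm9 peak had its midpoint within 5 kb of an annotated start (GENCODE vM1) for 4 of the 10 genes, Esrrb, Klf4, Klf5 and Tfcp2l1, beside 35.0% of 22208 protein-coding genes. Distances were 1319 bp at Klf4, 3058 bp at Klf5, 4069 bp at Esrrb and 4916 bp at Tfcp2l1, and none was within 1 kb. The peaks at Klf4 and Klf5 had their midpoints in exons and low signals of 5.49 and 4.36, while the list's median was 11.96. Esrrb and Tfcp2l1 had such a peak in both replicate lists. Klf4 and Klf5 had it in replicate 2 alone, and at Klf4 that replicate's peak lay 355 bp from a start and did not overlap the pooled one. Without replicate 2 the count was 2, beside 32.9% of protein-coding genes, and with only peaks at or above the list's median signal it was 1, beside 20.7%.

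At the threshold of 12.8 bits, most peaks of the windows contained a CTCF motif near the midpoint, as did most other peaks of the list. Of 78 pooled mm9 peaks, 47 (60.3%, exact 95% interval 48.5 to 71.2) held a match within 50 bp of it, beside 54.4% of 37271 peaks outside the windows and the training set. In the whole peak, 66 (84.6%, 74.7 to 91.8) held a match, beside 80.6%. The threshold was set on windows of 101 bp and the peaks had a median width of 913 bp, so that a chance match is more frequent in the whole-peak search. By annotation, 54 of the 78 peaks were intergenic, 22 intronic and 2 exonic. The other peaks of the list were not annotated in this way, so these counts have no share to stand beside. Both Klf5 peaks lacked a match, as did the strongest Klf4 peak. The latter scored at most 7.02 bits, at a place 410 bp from its midpoint, and 0.195 bits within 50 bp of it. Matches with a missing or an extra base were not sought. The middle of this Klf4 peak is shown here because its signal of 25.04 ranked 1020 of 39349.
Klf4 strongest peak, chr4:55493496-55493554, plus strand: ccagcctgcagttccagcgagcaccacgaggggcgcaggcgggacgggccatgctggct

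Motif direction varied from gene to gene. Of the 66 peaks with a motif anywhere in the peak, 36 had the motif in the direction of transcription of their gene. At Sall4 9 of 12 did, and at Tcl1 5 of 6, of which 4 are the near-copies. The nearest motif-bearing peaks on either side of the span pointed towards the gene in 10 cases and away in 7. None of these counts of direction was made for other genes, so they are descriptions only. Both flanking motifs pointed inwards at Tfcp2l1 and Tbx3, the arrangement in which CTCF sites are known to pair in loops. At both of these genes the nearest upstream peak held no match and was passed over. The upstream motif was that of a peak 63189 bp from the start at Tfcp2l1 and 86361 bp at Tbx3. These peaks had signals of 8.86 and 7.03, below the list's median of 11.96. Both flanking motifs pointed outwards at Esrrb. At Klf2, Prdm14, Zfp42, Tcl1 and Sall4 the flanking motifs pointed the same way. The nearest mm10 peaks upstream of Klf2 (25520 bp) and downstream of Prdm14 (33740 bp) had no counterpart in the pooled mm9 list. On those sides the motifs came from peaks 46180 and 75001 bp from the start. They lay 442 and -364 bp from the midpoint, found only in the whole-peak search, where a chance match is more frequent. The upstream motif of Prdm14 was also found only in that search. Loops were not measured.

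**Figure D5:**
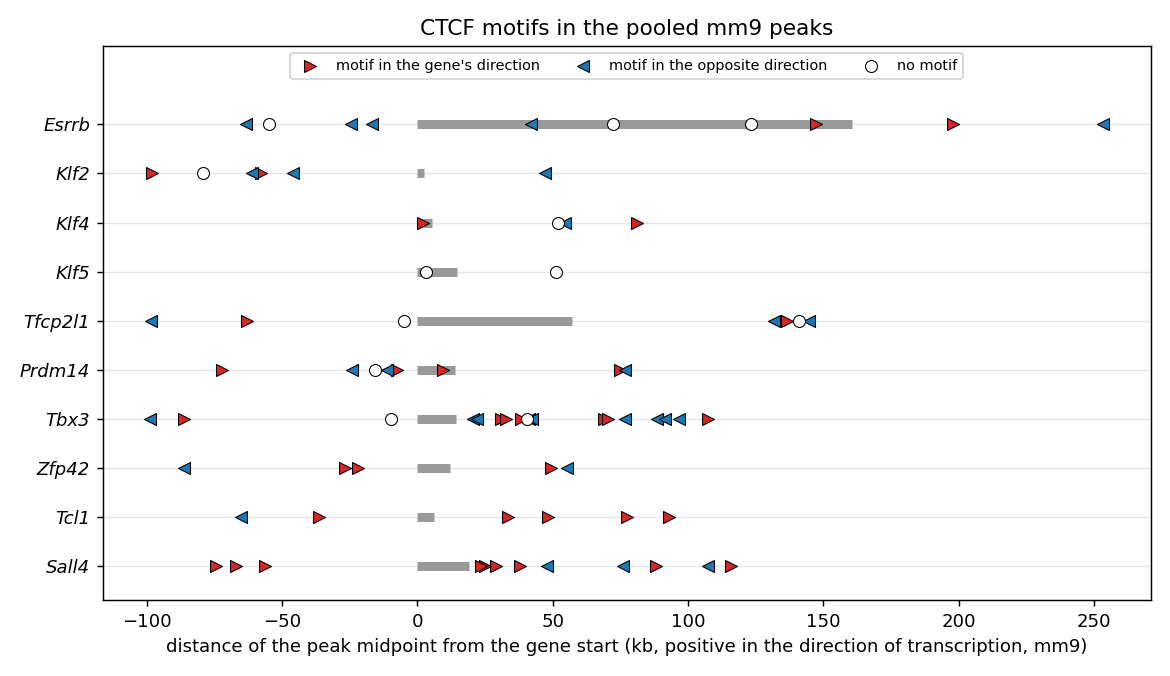
CTCF motifs in the 78 pooled mm9 peaks by distance of the peak midpoint from the gene start in kb (x axis), with red triangles for motifs in the direction of the gene, blue triangles for the opposite direction and open circles for peaks without a match. Both Klf5 peaks are open circles, and 9 of 12 Sall4 motifs run with the gene.

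Other lists of genes were counted in the same way. Among 20 further pluripotency genes the median was 8.5 peaks and the range 1 to 24, with 11 above the median of all protein-coding genes. Pou5f1, which encodes Oct4, had 24, Fgf4 20 and Dppa3 14, while Nr0b1 had 1, Myc 2 and Mycn 3. Among 12 genes that mark the later primed state the median was 5 and the range 0 to 13. Dnmt3b and T had 13 each and Lef1 12, while Sox3 had 0 and Cdh2 3. Among 25 other Klf, Sall and Tbx genes the median was 6 and the range 0 to 20. Klf1 had 20, Tbx5 19 and Klf16 16, and Klf6 and Klf7 had 0. These medians are descriptions of named lists, and no difference between the lists was tested.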

How the data were processed

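The authors deposited peak lists only, and the depth of the libraries is unknown. Per the file headers and descriptions, the mm10 lists (300000 entries for each replicate and for both pooled, with background) were input for IDR. The deposited signal is a value per peak from the authors' peak caller, and its scale is not stated for mm10 or mm9. The sources used here name no peak caller, aligner or IDR threshold. The mm9 lists are broad peaks.

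The genes, lists and settings were chosen with earlier results of these data known. All 10 genes were named, with the strongest peak, the nearest on each side and those inside; of other lists, the 3 genes with most and the 3 with fewest peaks, ties by alphabet, except 1 item that is not reported here. Sequences of the strongest Klf4 peak and of the downstream Tcl1 peaks were added after their values were seen.

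Relative signal was the nearest replicate entry within 100 bp of the summit, divided by the replicate's median over matched conservative peaks. The 19-base CTCF matrix was estimated by expectation maximisation on the 2000 strongest mm9 peaks outside the windows. Flanking windows lay 500 to 5000 bp from peaks. Tfcp2l1 was matched in GENCODE vM1 through its older symbol. No coordinates were converted between builds. Strands came from GENCODE vM1, and the mm10 start was the outer end of the RefSeq span. Intervals are exact Clopper-Pearson and cover counting error only. Counting, distances and motif estimation were tested on simulated data. Alternatives covered flanks, peak sets, matching, scaling, distances, thresholds and each replicate alone. Python 3.11.15, pandas 2.3.3, numpy 2.4.6, scipy 1.17.1, pysam 0.24.0, Biopython 1.88, samtools 1.23.1 and matplotlib 3.10.9 were used.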

Additional observations from a re-analysis of the deposited data

How the results depend on the processing

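Depth is unknown, so weak sites cannot be told from missed ones, and 1 group of 2 libraries allows no test. Counts followed the window and the peak set. With 50 kb flanks the median was 4 peaks and the total 46, with 200 kb flanks 12.5 and 143, and with only peaks at or above the set's median signal 4 and 43. That stricter set moved the median distance to the nearest peak to 46520 bp. Alternative window counts and distances, here and below, were not computed over all protein-coding genes. They therefore say nothing of the comparison with those genes. The median signal was 75.85 in the optimal set, close to that whole set's own median of 75.38. It was 74.32 with 50 kb and 86.94 with 200 kb flanks, beside 77.2 for the whole conservative set. Its place above the conservative set's median thus did not hold with 50 kb. With either replicate alone the median ranged from 7.5 to 8.5, the total from 82 to 89, the distance from 25530 to 35000 bp, and genes with a peak near a start from 2 to 4 of 10, beside 32.9% and 33.1% of protein-coding genes. At 1 kb from a start that number was 0 (beside 12.7%), and 1 with the stricter mm9 peaks (beside 20.7%). The motif share was 35.9% at the score of 0.1% of flanking windows and 84.62% over whole peaks, beside 28.5% and 80.6% of other peaks. Leaving out the Tcl1 window gave a motif share of 56.94%, within the exact interval of the main value. Leaving out the Tbx3 window left the median count at 7. Both windows were chosen after seeing the data. The optimal set left all 10 counts within 1.5 times.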

Other observations

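At the Tcl1b copies the mm9 and mm10 lists ranked the same distances from the Tcl1 start differently. The sites at 33.6 and 48.3 kb ranked 2564 and 3819 of 39349 in the pooled mm9 list, and those at 33.4 and 48.2 kb ranked 28546 and 34163 of 43344 in the conservative mm10 set. The mm9 peak at 77.6 kb ranked 11452, and the pooled mm10 entry at 77.6 kb ranked 160169 of 299842. At the peak 36.3 kb upstream, whose sequence is not one of these copies, the ranks were 85 and 59. The cause was not tested.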
